A study of Bubalus bubalis with 6 samples.

Results

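miR-1246 (bta-miR-1246) is a single microRNA (miRNA), 1 of the 273 listed in a small RNA sequencing table of cell-free saliva from Murrah buffaloes (Bubalus bubalis), and it was taken by name as that 1 row over all 6 libraries. The libraries came from 3 healthy wildtype animals, each sampled at estrus and again at diestrus of the estrous cycle, so that each phase holds 3 libraries from the same 3 animals. No treatment or age is given in the labels. The miRNA was chosen by its reads, which differ between the phases in these same libraries: its share of each library and its ratios to other miRNAs are the values that selected it. Its own values are therefore given as a description, with no p-value. The fits over the whole table include it. Only its difference, standard error and place among the miRNAs, and whether a count includes it, are given from them, also as a description.

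miRNAs are short RNAs that guide Argonaute proteins to partly matching messenger RNAs and lower their output, and those in saliva outside cells are protected in vesicles or by bound proteins. miR-1246 is known for its abundance in extracellular vesicles and body fluids, and in human cells its sequence matches a stretch of the spliceosomal U2 small nuclear RNA, so that fragments of that RNA can be counted under its name. Cell-free saliva mixes RNA released by salivary glands, oral epithelium and the leukocytes that enter the mouth from the gums. Estrus is the receptive phase around ovulation, when estradiol peaks, and diestrus is the luteal phase, when the corpus luteum secretes progesterone.

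The values are the authors' normalized counts, which are reads divided by 1 size factor per library, and whole reads were recovered from them. Depth ranged from 3015 to 27036 reads, and each estrus library (6749 reads or more) was deeper than each diestrus library (5548 reads or fewer), so depth and phase cannot be told apart in this design. The estrus library of animal 3 stood apart from the rest, and its label alone carries the letters Repl, which the labels do not explain. Over the 57 other miRNAs tested, its Spearman correlation with the other 5 libraries lay between -0.21 and 0.16, while the other pairs of libraries gave 0.35 to 0.91. The 57 miRNAs of a library share its depth and total and are not independent. The highest value, 0.91, joined the estrus and diestrus libraries of animal 2.

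miR-1246 dominated the diestrus libraries and not the estrus libraries. At diestrus it had 2298 of 3015 reads in animal 1, 3049 of 5548 in animal 2 and 3719 of 5055 in animal 3. At estrus it had 202 of 16874 reads in animal 1, 1352 of 6749 in animal 2 and 487 of 27036 in animal 3. All 3 diestrus counts lay above all 3 estrus counts, although the diestrus libraries were the shallower ones.

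As a share of the library, miR-1246 was highest at diestrus in animals 1 and 3 (76.2% and 73.6%), whose 95% Wilson intervals of 74.7% to 77.7% and 72.3% to 74.8% overlapped. Diestrus of animal 2 followed at 55.0% (53.6% to 56.3%), then estrus of animal 2 at 20.0% (19.1% to 21.0%). The lowest were estrus of animal 3 at 1.80% (1.65% to 1.97%) and estrus of animal 1 at 1.20% (1.04% to 1.37%). These intervals cover counting error only, and PCR copies are not independent molecules unless molecular indices were collapsed. It was the most abundant miRNA in each diestrus library. At estrus it ranked 14 in animal 1, 2 in animal 2 and 17 in animal 3.

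The distance to the next miRNA also changed. In the diestrus library of animal 1, miR-1246 had 23.4 times the reads of the next most abundant miRNA, which was miR-223 with 98 reads. In the diestrus libraries of animals 2 and 3 the next was miR-11980, with 529 and 446 reads, and miR-1246 had 5.76 and 8.34 times as many. In the estrus library of animal 1, by contrast, miR-12034 led with 4937 reads. let-7b led in the estrus library of animal 3 with 5453 reads. miR-11980 led in the estrus library of animal 2 with 2352 reads, 34.8% of that library.

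A share can fall because miR-1246 falls or because the other miRNAs rise, and shares alone cannot tell these apart. The reads give both terms, each at the depth of its library. miR-1246 itself averaged 680 ± 599 reads at estrus and 3022 ± 711 at diestrus (mean ± SD over n = 3 animals). All other miRNAs together averaged 16206 ± 10584 reads at estrus and 1517 ± 905 at diestrus (SD over n = 3 animals). For each 100 reads of other miRNAs there were 1.21, 25.1 and 1.83 reads of miR-1246 at estrus in animals 1, 2 and 3, and 321, 122 and 278 at diestrus.

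On the log2 scale, the ratio of miR-1246 reads to all other reads was -6.37, -2.00 and -5.77 at estrus in animals 1, 2 and 3, and 1.68, 0.29 and 1.48 at diestrus. The ratio was below 0 in all 3 estrus libraries and above 0 in all 3 diestrus libraries. Its mean was -4.71 ± 2.37 at estrus and 1.15 ± 0.75 at diestrus (SD over n = 3 animals), a difference of -5.86. Of that difference, -2.54 lay in the reads of miR-1246 and 3.32, counted in the opposite direction, in the reads of the other miRNAs. Both terms carry the depth of the libraries, whose log2 of all reads was on average 1.73 higher at estrus. The split therefore does not tell a fall of miR-1246 from a rise of the others. How much RNA each saliva sample held is not given, so neither term is an absolute amount.

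**Figure D1:**
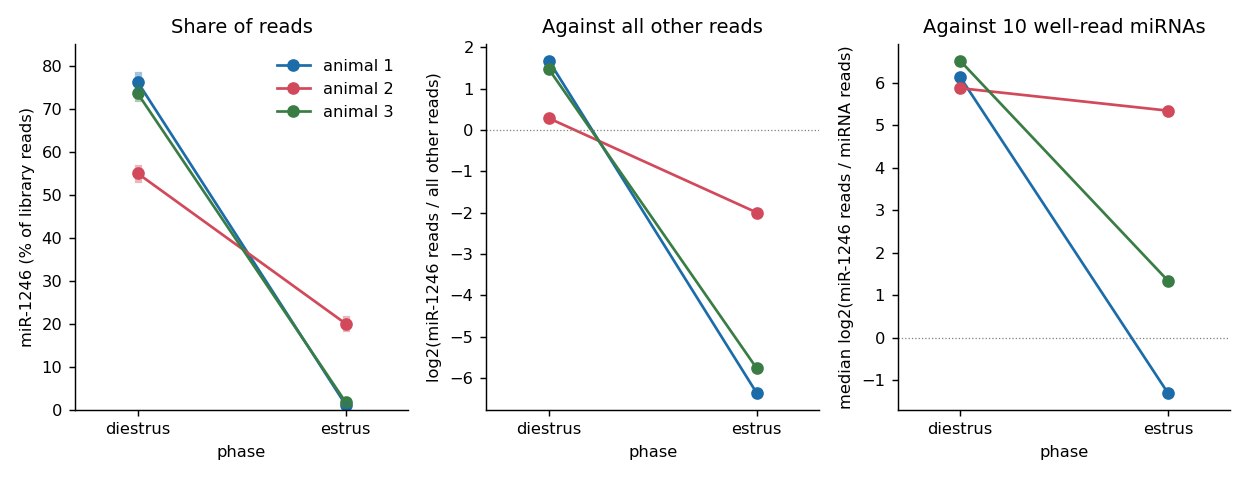
miR-1246 at diestrus and estrus in the 3 animals, as a percentage of library reads (left, pale bars are 95% Wilson intervals), as log2 of its reads over all other reads (middle) and as the median log2 ratio of its reads to those of 10 well-read miRNAs (right); each line joins the libraries of 1 animal. The share falls in each line, from 55.0% to 20.0% in animal 2, but in the right panel animal 2 moves only from 5.88 to 5.35.

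**Figure D2:**
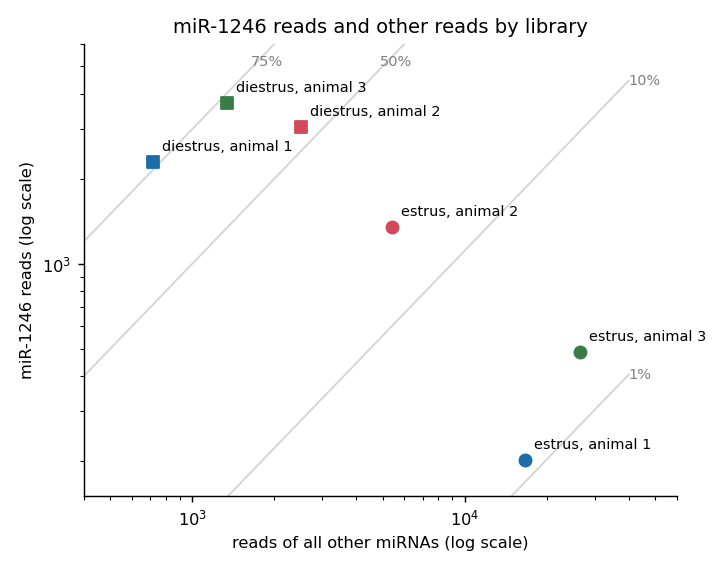
Reads of miR-1246 against reads of all other miRNAs in each library, both on log scales; circles are estrus, squares diestrus, colours the animals, and grey lines mark equal shares of the library. The diestrus libraries lie at the upper left, with 2298 to 3719 reads of miR-1246, and the estrus libraries at the lower right, with 202 to 1352.

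Animal 2 differed from the others in size. Its log2 ratio of miR-1246 to all other reads was 2.28 lower at estrus than at diestrus, a 4.87-fold difference. The same difference was -8.05 in animal 1 and -7.25 in animal 3. In normalized counts, animal 2 had 2444 at estrus and 4966 at diestrus. Animal 1 had 79.6 and 6548, and animal 3 had 87.6 and 6391. The 3 diestrus values were close together, and the spread between animals lay at estrus.

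The normalized count of miR-1246 averaged 870 ± 1363 at estrus and 5968 ± 872 at diestrus (SD over n = 3 animals). On the log2(normalized count + 1) scale the difference was -4.51, with a standard error of 1.64 from a linear model fitted with limma to the 58 miRNAs whose mean normalized count was at least 5. Over these 58 the median difference was 0.90, with 42 miRNAs higher and 16 lower at estrus, and relative to that median the difference of miR-1246 was -5.41. The median moved with the scaling, from -0.26 for totals without miR-1246 to 1.62 for DESeq2 on the recovered reads, while miR-1246 was lower at estrus under each. Its place in the fit follows from how it was chosen and supports nothing: it was the lowest of the 58, and the next lowest was miR-142-5p at -3.46. It ranked 2 from the lowest when totals with or without miR-1246 were scaled to a common value and with unblocked edgeR and DESeq2 on the recovered reads. With the animal as a block in edgeR it ranked 1. Of the 58, 3 were lower at estrus with no overlap between phases (5.17%), namely miR-142-5p, miR-223 and miR-1246 itself, which was chosen for this contrast. miR-142-5p passed the filter through its diestrus counts of 37.0, 21.2 and 32.7, so its direction was fixed by it. miR-30d, which passed the filter through estrus, was higher at estrus with no overlap (log2 difference 2.37). No miRNA passed an adjusted p of 0.05 in this fit (0 of 58, 0.0%, limma with Benjamini-Hochberg adjustment; 8 at an unadjusted p below 0.05). edgeR and DESeq2 on the recovered reads also gave 0, with 10 and 8 at an unadjusted p below 0.05. Without the estrus library of animal 2, limma gave 6, of which 4 were higher and 2 lower at estrus. The 2 lower include miR-1246, which was chosen for this contrast.

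A ratio between miRNAs of the same library does not depend on how the library is scaled. miR-1246 was therefore set against each of the 10 other miRNAs that had at least 10 reads in every library. Such ratios compare libraries and not numbers of molecules, since each sequence is ligated and amplified with its own efficiency. The median log2 ratio of miR-1246 to the 10 was 6.15, 5.88 and 6.53 at diestrus in animals 1, 2 and 3. At estrus it was -1.30 in animal 1, 5.35 in animal 2 and 1.34 in animal 3. The means were 6.18 ± 0.33 at diestrus and 1.80 ± 3.35 at estrus (SD over n = 3 animals), a difference of -4.39. Without the estrus library of animal 1 the difference was -2.84.

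By this measure the estrus library of animal 2 lay near the diestrus libraries. The log2 difference within animal 2 was -0.53, against -7.45 in animal 1 and -5.18 in animal 3. The lower share of miR-1246 in that estrus library stood beside high shares of a few miRNAs annotated in cattle. miR-11980 held 34.8% of its reads, miR-11987 17.7% and miR-12034 7.60%. In the diestrus library of the same animal these 3 held 9.53%, 2.69% and 2.29%.

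At diestrus miR-1246 outnumbered each of the 10 well-read miRNAs in each library, with all 30 log2 ratios at 2.53 or higher. At estrus the ratio was below 0 for 8 of the 10 in animal 1, for 4 in animal 3 and for 1, miR-11980, in animal 2. The mean ratio was lower at estrus for all 10, with log2 differences from -3.01 (miR-223) to -6.71 (let-7a-5p). It was lower in all 3 animals for 9 of the 10. The exception was miR-2478, whose ratio in animal 2 was 5.15 at estrus and 4.04 at diestrus.

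For 7 of the 10 the phases did not overlap. The share of ratios without overlap was 8.89% among the 45 pairs formed by the 10 miRNAs without miR-1246. Since miR-1246 was chosen for this contrast, nothing is read from the comparison. The 3 ratios that overlapped were those to miR-2478, miR-23a and miR-23b-3p, and in each case the estrus library of animal 2 lay within the diestrus range. Without that library all 10 ratios were free of overlap, beside 26.7% of the 45 other pairs. Without the estrus library of animal 3, which stood apart, the count was 7, beside 31.1%.

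The largest differences were against let-7 members, a family that promotes differentiation and is abundant in most mature tissues. The log2 ratio of miR-1246 to let-7a-5p was 6.21, 6.18 and 8.54 at diestrus in animals 1, 2 and 3. At estrus it was -2.29, 5.54 and -2.46. The values were high in 4 libraries and below 0 in the estrus libraries of animals 1 and 3. let-7c gave a mean log2 ratio of 7.02 ± 1.20 at diestrus and 0.88 ± 4.12 at estrus (SD over n = 3 animals). let-7 members are alike in sequence, and how reads were divided among them is uncertain.

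The estrus libraries were closest together in their ratios to miR-11980, a miRNA annotated in cattle. Its log2 ratios were 4.61, 2.53 and 3.06 at diestrus and -2.98, -0.80 and -2.04 at estrus. All 3 animals changed sign, and the SD between animals was 1.08 at diestrus and 1.10 at estrus. miR-11987 gave 6.08, 4.35 and 4.74 at diestrus and -1.48, 0.18 and 1.14 at estrus. Against both, the estrus libraries of all 3 animals lay below all diestrus libraries.

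The smallest differences were against miR-223, a miRNA of neutrophils and other myeloid cells. The log2 ratio of miR-1246 to miR-223 was 4.55, 5.16 and 4.50 at diestrus and 1.09, 4.33 and -0.24 at estrus. The estrus value of animal 2 lay just below the diestrus range. miR-320a, whose precursor is made without the nuclease Drosha, gave 6.64, 7.49 and 7.40 at diestrus and 3.34, 6.40 and 1.68 at estrus. miR-23a and miR-23b-3p, near-identical miRNAs from paralogous clusters with miR-27 and miR-24, gave mean ratios of 5.89 ± 0.30 and 5.93 ± 0.33 at diestrus and of 2.39 ± 3.28 and 2.61 ± 3.22 at estrus (SD over n = 3 animals). Their reads may not be separable by the counting. miR-2340, annotated in cattle, gave 6.91 ± 1.16 at diestrus and 1.44 ± 3.79 at estrus (SD over n = 3 animals).

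**Figure D3:**
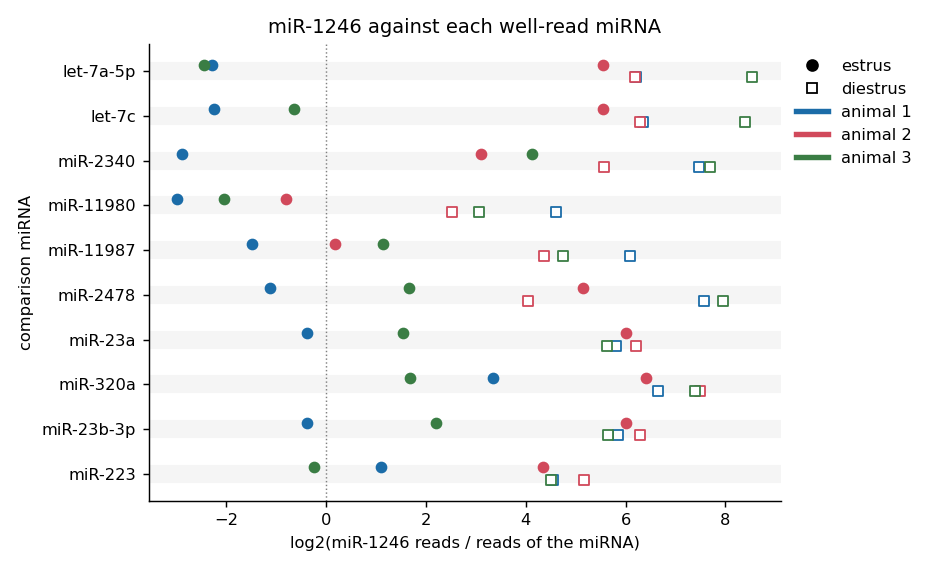
log2 ratio of miR-1246 reads to the reads of each of the 10 miRNAs with at least 10 reads in every library; filled circles are estrus, open squares diestrus, colours the animals, and the dotted line marks equal reads. All diestrus squares lie at 2.53 or higher, the estrus circles of animals 1 and 3 lie to the left of all squares of the same miRNA, and the red circles of animal 2 lie within or close to the squares against let-7a-5p, let-7c, miR-2478, miR-23a, miR-23b-3p, miR-320a and miR-223.

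The same median ratio was computed for each of the 11 well-read miRNAs against the other 10. The difference between phases was -4.39 for miR-1246, which was chosen by these ratios, so its place among the 11 is no finding. It was 2.83 for let-7a-5p and 2.26 for let-7c. The values of the remaining 8 lay between -1.37 (miR-223) and 1.43 (miR-2340). The 11 values share libraries and reads and are not independent of each other.

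Likeness to miR-1246 was measured by the SD of a miRNA's log2 ratio to it over the 6 libraries, for the 42 other miRNAs with at least 1 read in each. A small SD means that the ratio to miR-1246 changed little over the libraries. It does not by itself show that the reads went up and down together, since miRNAs with near-constant reads can also rank as close. The SD ranged from 0.75 to 5.13, with a median of 3.60. Among the 861 pairs of these 42 miRNAs the median SD was 2.40. By its median SD to the others, miR-1246 ranked 3 from the highest of the 43.

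The closest was miR-142-5p, a miRNA of blood-forming cells and leukocytes, with an SD of 0.75. It had 13, 13 and 19 reads at diestrus in animals 1, 2 and 3, and 2, 5 and 1 at estrus. Like miR-1246, it was highest in the diestrus libraries and, among the estrus libraries, in animal 2. Its log2 ratio lay between 6.66 and 8.93 in all 6 libraries, but it rests on 53 reads in all, and its 2 and 1 reads in the estrus libraries of animals 1 and 3 are below the floor of 3 reads.

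miR-11975 and miR-11976, both annotated in cattle, followed with SDs of 1.13 and 1.17. miR-11975 had 22, 30 and 40 reads at diestrus and 13, 28 and 4 at estrus. miR-11976 had the same reads except for 14 in the estrus library of animal 1, so the counting may not separate the pair. Next came miR-107, a miRNA that lies in a pantothenate kinase gene, with an SD of 1.71. It had 8, 6 and 17 reads at diestrus and 5, 6 and 19 at estrus. The mean log2 ratio of miR-1246 to it differed by -2.37 between phases, so miR-107 did not follow the fall of miR-1246. miR-103 had the same reads as miR-107 at diestrus and 6, 6 and 113 at estrus, with an SD of 2.59, so the counting may not separate that pair. miR-199a-3p, known from mesenchymal cells, came after miR-107 with an SD of 2.15, but it had 1 to 3 reads in each library and cannot be followed at this depth.

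The miRNAs least like miR-1246 were miR-12034 (SD 5.13), miR-30d (5.08), let-7b (5.02), let-7f (4.86) and miR-423-5p (4.78). miR-12034 had 9, 127 and 5 reads at diestrus and 4937, 513 and 153 at estrus, and as a share of reads it held 0.299%, 2.29% and 0.0989% at diestrus and 29.3%, 7.60% and 0.566% at estrus. let-7b had 34, 29 and 9 reads at diestrus and 740, 28 and 5453 at estrus. miR-30d had 24, 2 and 709 reads at estrus, and its 1, 1 and 2 reads at diestrus did not reach the floor of 3 reads. let-7f ranged from 4 to 1172 reads and miR-423-5p from 1 to 608, each with its highest value in the estrus library of animal 3.

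**Figure D4:**
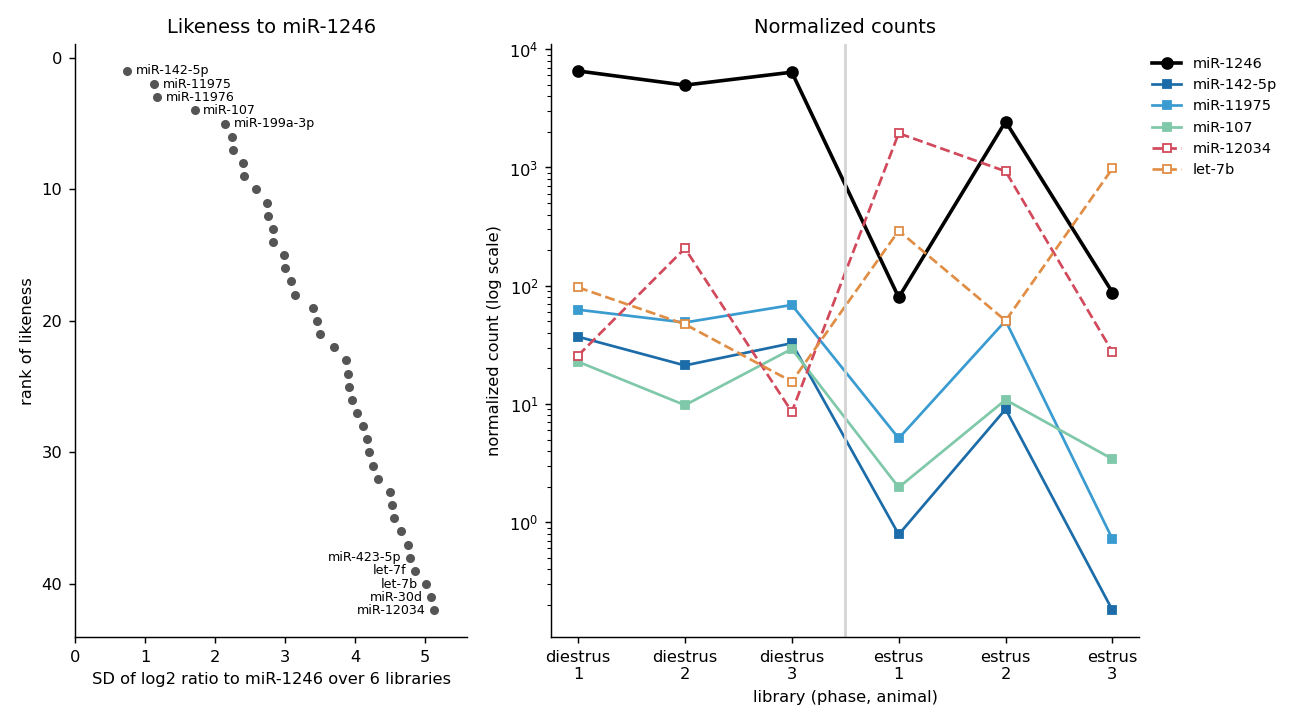
Left, the 42 miRNAs detected in every library, ordered by the SD of their log2 ratio to miR-1246 over the 6 libraries, with the 5 closest and the 5 farthest named. Right, normalized counts on a log scale of miR-1246, of 3 of the closest (solid lines) and of 2 of the farthest (dashed lines) by library: miR-1246 and miR-142-5p are highest in the 3 diestrus libraries and, within estrus, in animal 2, where miR-1246 has 2444 normalized counts, and let-7b is highest in estrus of animal 3.

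Markers of cells that could shed RNA into saliva were read in the same libraries. Of the 6 leukocyte miRNAs listed, 5 were in the table, and their summed share of reads was 0.575% to 2.29% at estrus and 1.77% to 3.68% at diestrus. Most of it was miR-223, and miR-150, miR-155 and miR-146a had 0 reads in 5 of the 6 libraries. The 2 members tested, miR-223 and miR-142-5p, had log2 differences of -1.50 and -3.46, beside a median of 0.90 over all 58 miRNAs on the deposited scaling. 0 of these 2 passed an adjusted p of 0.05 (limma). miR-142-5p had normalized counts of 0.788, 9.04 and 0.180 at estrus and 37.0, 21.2 and 32.7 at diestrus. It passed the filter on low values through diestrus libraries, so its direction was fixed by it. The list's share of all reads overlapped between phases, since the estrus library of animal 3 lay above the diestrus library of animal 2, and the reads of miR-150, miR-155 and miR-146a (16, 20 and 5) were all in that estrus library. The part of leukocyte RNA in the result was not tested. As a share of the reads without miR-1246, the leukocyte list held 0.582%, 1.33% and 2.33% at estrus in animals 1, 2 and 3, and 15.5%, 3.92% and 13.7% at diestrus.

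Of the 8 epithelial miRNAs listed, 7 were in the table, with a summed share of 0.163% to 9.41% at estrus and 0.252% to 0.356% at diestrus. The estrus library of animal 3 held 2543 of these reads, animal 1 had 186 and animal 2 had 11. At diestrus there were 8, 14 and 18. miR-200c, miR-375 and miR-200a had 0 to 2 reads in each diestrus library and passed the filter on low values through estrus libraries, so their direction was fixed by it. miR-200b, miR-141 and miR-429 did not pass the filter and had 105, 46 and 43 reads in the estrus library of animal 3 and 0 to 19 in each of the others. miR-205 had 17, 8 and 305 reads at estrus in animals 1, 2 and 3, and 7, 12 and 16 at diestrus. Of the 4 epithelial miRNAs tested, 0 passed an adjusted p of 0.05 (limma). Of the 3 erythrocyte miRNAs listed, only miR-486 was in the table, with 11 reads in all. As a share of the reads without miR-1246, the epithelial list held 1.12%, 0.204% and 9.58% at estrus in animals 1, 2 and 3, and 1.12%, 0.560% and 1.35% at diestrus, so that the estrus library of animal 3 stood above the rest and the phases overlapped. The part of epithelial and erythrocyte RNA in the result was not tested.

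miRNAs that, as background, arise by routes other than the usual Drosha and Dicer cuts were listed beside miR-1246. Of 10 such miRNAs, 3 were in the table. At estrus miR-320a had 20, 16 and 152 reads in animals 1, 2 and 3, and at diestrus it had 23, 17 and 22. Its log2 difference in normalized counts was -1.10 (standard error 1.44; adjusted p = 0.728 with limma). miR-484 had 4 reads, all in the estrus library of animal 3. miR-1224, a miRNA excised by splicing, had 2 reads, 1 each in the diestrus libraries of animals 2 and 3.

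The detection of other miRNAs was compared between phases with miR-1246 left out. Without it, 717, 2499 and 1336 reads were left at diestrus in animals 1, 2 and 3, and 16672, 5397 and 26549 at estrus. At full depth, 171 ± 56 other miRNAs were detected at estrus and 101 ± 16.3 at diestrus (SD over n = 3 animals). In equal draws of 717 reads without miR-1246, the expected number was 51.3, 47.3 and 85.2 at estrus and 83.0, 65.0 and 83.4 at diestrus. The means were 61.3 ± 20.9 and 77.1 ± 10.5 (exact two-sided permutation test over 20 assignments, p = 0.4; the smallest this design allows is 0.1, so it cannot reach 0.05). The phases overlapped through the estrus library of animal 3, and the estrus values of animals 1 and 2 lay below all 3 diestrus values.

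The direction of that difference turned with the handling of miR-1246. It was -15.9 miRNAs without miR-1246 at 717 reads, and 15.7 with miR-1246 kept in draws of the same 717 reads. Keeping miR-1246 and drawing 3015 reads gave 17.9. With miR-1246 kept, its own share of the library enters these numbers, so they are given with no test. The phases overlapped in each of these draws. Without miR-1246, animal 1 showed a difference of -31.7 miRNAs, animal 2 of -17.8 and animal 3 of 1.88 (exact test over all sign changes of the 3 differences, p = 0.5, where 0.25 is the smallest possible). The difference was -27.9 without the estrus library of animal 3 and -8.87 without that of animal 2, with exact permutation p-values of 0.2 and 0.7.

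**Figure D5:**
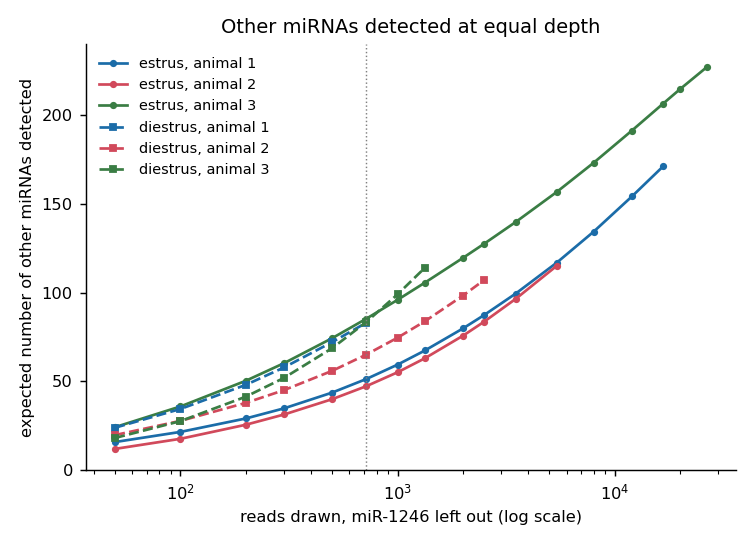
Expected number of miRNAs other than miR-1246 detected in draws of increasing size from each library (log scale), with solid lines for estrus, dashed lines for diestrus and colours for the animals. At the dotted line, 717 reads, the libraries lie between 47.3 and 85.2 miRNAs with the phases mixed, although the estrus lines reach 115 to 227 at full depth.

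The shares of the other tested miRNAs also depended on miR-1246. As a share of all reads, 38 of the 57 other miRNAs had a higher mean at estrus and 19 a lower mean. As a share of the reads left without miR-1246, 33 were higher and 24 lower. miR-11980, the most abundant of the others in 3 of the 6 libraries, shows the size of this. Its share of all reads was 17.2% ± 15.3 at estrus and 7.16% ± 3.52 at diestrus (SD over n = 3 animals). Its share of the reads left without miR-1246 was 20.2% ± 20.2 at estrus and 22.6% ± 10.2 at diestrus, so the mean difference changed sign, and both differences lay within the spread between animals. miR-223 had a lower mean at estrus either way. Its share of all reads was 0.563%, 0.993% and 2.13% at estrus in animals 1, 2 and 3, and 3.25%, 1.53% and 3.24% at diestrus, with estrus of animal 3 above diestrus of animal 2. Its share of the reads left was 0.570%, 1.24% and 2.17% at estrus, and 13.7%, 3.40% and 12.3% at diestrus, and these values did not overlap.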

How the data were processed

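Small RNA was sequenced from 6 cell-free saliva libraries, 3 animals at 2 phases. Per the labels' protocols, RNA was isolated by phenol extraction, and the library kit tags each molecule with an index during reverse transcription, ahead of PCR amplification. The submitters' processing notes name cutadapt, UMI-tools, Bowtie, SAMtools, featureCounts, DESeq2 and FastQC, with no role or order. The miRNA reference, the handling of reads with several matches and whether indices were collapsed are not given in the sources used here, so "read" is used for the counted unit. The authors deposited 1 table of normalized counts, a size-factor scaled signal. Dividing each column by its smallest value above 0 gave whole reads for 100% of the values (tolerance 0.001 reads). In diestrus of animals 1 and 2 and estrus of animal 2, fewer low values support that step than in the other libraries. The step equals the reciprocal of median-of-ratios size factors recomputed over the 43 miRNAs above 0 in all libraries.

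limma 3.58.1 (R 4.3.3) with a mean-variance trend was fitted to log2(normalized count + 1) for the 58 miRNAs with a mean of at least 5, estrus minus diestrus, with no block. The count tests edgeR 4.0.16 and DESeq2 1.42.0 served as alternatives, on recovered reads. The other alternatives were pseudocounts of 0.1 and 10, other filters and scalings, and leaving out each library. The fits were run on simulated tables first. Equal-depth detection is the expected number of miRNAs in a draw without replacement (Python 3.11.15, scipy 1.17.1). The labels give the same animal number to the 2 phases, which pairs the samples. The deviations of same-animal libraries from their phase means correlated at -0.0046, 0.37 and 0.30 in animals 1, 2 and 3. Labels name 3 animals per phase as separate samples.

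Named miRNAs are miR-1246, the 10 others with at least 10 reads in every library, and the 5 most and 5 least like it. The leading other miRNA of each library and members of the lists with at least 10 reads in all are also named. miR-484, miR-1224 and miR-146a, with fewer reads, and miR-103, set beside miR-107, were added after their values were seen. The miRNA, the lists and the tests were chosen with earlier results of these data known.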

Additional observations from a re-analysis of the deposited data

How the results depend on the processing

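miR-1246 was lower at estrus in each alternative run for its share, its log2 ratios and its normalized count. All of these alternatives reuse the values that selected it, so nothing is read from this. With the animal as a replicate block its difference in normalized counts was -4.51, with a standard error of 1.81 in place of 1.64. Since each animal gave a library at both phases, the block cannot move this difference, only its standard error. With the block, 0 miRNAs passed an adjusted p of 0.05 (limma), and the block changed no other call. Paired within animals, the difference was -5.86 against all other reads, -4.39 against well-read miRNAs and -60.6 percentage points of the share. These equal the unpaired differences by design and are no separate result. Over the 19 alternatives its difference in normalized counts lay between -6.13 (without estrus replicate 2, the estrus library of animal 2) and -2.78 (DESeq2 on recovered reads).

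The share differed by -60.6 percentage points as reported, by -71.8 with medians in place of means, and by -67.2 to -56.6 over the fits without 1 library. The log2 ratio to all other reads ranged from -7.22 to -5.03 and the median ratio to well-read miRNAs from -6.16 to -2.84 over the same omissions. With at least 20 reads required in each library, 5 comparison miRNAs were left and the median ratio differed by -3.54. The number of non-overlapping ratios among the 10 ranged from 7 to 10, an alternative chosen after seeing the data. Over the same omissions the share without overlap among the 45 other pairs ranged from 8.89% to 33.3%. The count of miRNAs past the adjusted threshold (limma) was 0 as reported and 1 after quantile normalization. Without 1 library it was 0 to 6, with 6 only without estrus replicate 2. The 1 was miR-1246 itself and the 6 include it. Since miR-1246 was chosen for this contrast, nothing is read from its place in these counts. The cause of the change in the count was not tested. The difference in other miRNAs detected reversed to 15.7 with miR-1246 kept at the same 717 reads, an alternative chosen after seeing the data, to 17.9 with miR-1246 kept and 3015 reads drawn, and to 69.7 without it at full depth, where estrus libraries hold more reads, and ranged from -27.9 to -8.87 without 1 library. Depth limits miRNAs with few reads most: a floor of 3 reads was 0.0111% of the deepest library and 0.0995% of the shallowest.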
